A study of Mus musculus with 6 samples.

Results

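Kinesins are the motor proteins that walk along microtubules or take microtubules apart at their ends, using ATP. In the testis one group of them builds and separates the meiotic and mitotic spindles and completes cytokinesis, another carries vesicles, organelles and protein cargo, and a further group works in cilia and in the sperm flagellum. Kif17 is known in male germ cells as the motor that moves Act, the product of Fhl5, which is a coactivator of the transcription factor Crem in spermatids. The genes described here are those that the deposited table names Kif followed by a digit and lists as protein coding. They number 38 of the 26743 genes in the table. By their known functions, 12 were taken as spindle and cytokinesis motors, 15 as transport motors and 6 as cilium and flagellum motors, and 5 others did not fall in these lists. The transport list groups motors by cargo transport in general and includes the kinesin-2 subunits Kif3a and Kif3b, which also work in cilia.

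RNA was measured in whole testes of 3 WT and 3 Trf2-/- mice, all at 21 days after birth, when round spermatids have begun to appear in the first wave of spermatogenesis. Trf2, listed under its gene name Tbpl1, is a relative of the TATA-binding protein, and the age was chosen by the study to precede the loss of round spermatids in the mutant. The mice are independent biological replicates, and no other allele or treatment is given for either genotype. Strand-specific libraries depleted of ribosomal RNA gave 21582123 to 29859347 reads counted on genes in WT mice and 15187062 to 24530489 in Trf2-/- mice. The ranges of the genotypes overlap, and the least deep library was that of Trf2-/- mouse 3. A count of 0 allows up to 3 counts, which is 0.105 to 0.144 CPM (reads scaled to library size) in WT and 0.119 to 0.190 CPM in Trf2-/- mice, a limit that covers counting error only. Tbpl1 itself was at 308, 283 and 294 CPM in WT mice and at 62.9, 64.3 and 55.8 CPM in Trf2-/- mice, so each library matched its label.

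Of the 37 tested kinesin mRNAs, 12 (32.4%) were lower in Trf2-/- testis, beside 20.2% of all tested genes. Most of the 12 fell moderately, and the majority of the kinesin mRNAs did not pass the test. The strongest decreases were those of Kif2b, a spindle motor that fell 6.40-fold, and Kif19a, a ciliary motor that fell 2.64-fold. Kif9, a motor of the flagellar axoneme and in WT testis the kinesin mRNA with the most reads per gene length, fell 1.82-fold. Kif17 fell 1.58-fold. Kif20a, the most abundant of the spindle motors per gene length, differed by less than the spread between mice.

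Genotypes were compared gene by gene with edgeR's quasi-likelihood test, and p-values were adjusted over the 16924 genes that passed the filter on low counts. In whole testis, fewer cells of a type and less RNA per cell cannot be told apart. Of the 38 kinesin genes, 37 passed this filter. At an adjusted p under 0.05, 12 of the 37 (32.4%) were lower in Trf2-/- testis, 1 (2.70%) was higher and 24 were not called. Over all tested genes 20.2% were lower and 11.2% higher under the same rule. With a fold limit of 2 added, 2 of the 37 (5.41%) were lower and 0 higher, against 4.30% and 0.609% of all genes. There was no overlap in CPM between the genotypes for 14 kinesin genes (37.8%) that were lower in Trf2-/- and for 6 (16.2%) that were higher, where all genes gave 26.8% and 22.3%. The median log2 fold change of the 37 genes was -0.05, with a range from -2.68 to 0.39, beside a median of 0.04 over all tested genes. The number of higher calls depended on the scaling. With library size alone in place of TMM factors, 12 kinesin genes were lower and 8 higher, against 15.9% and 25.2% of all genes, and the median of all genes moved to 0.13.

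**Figure D1:**
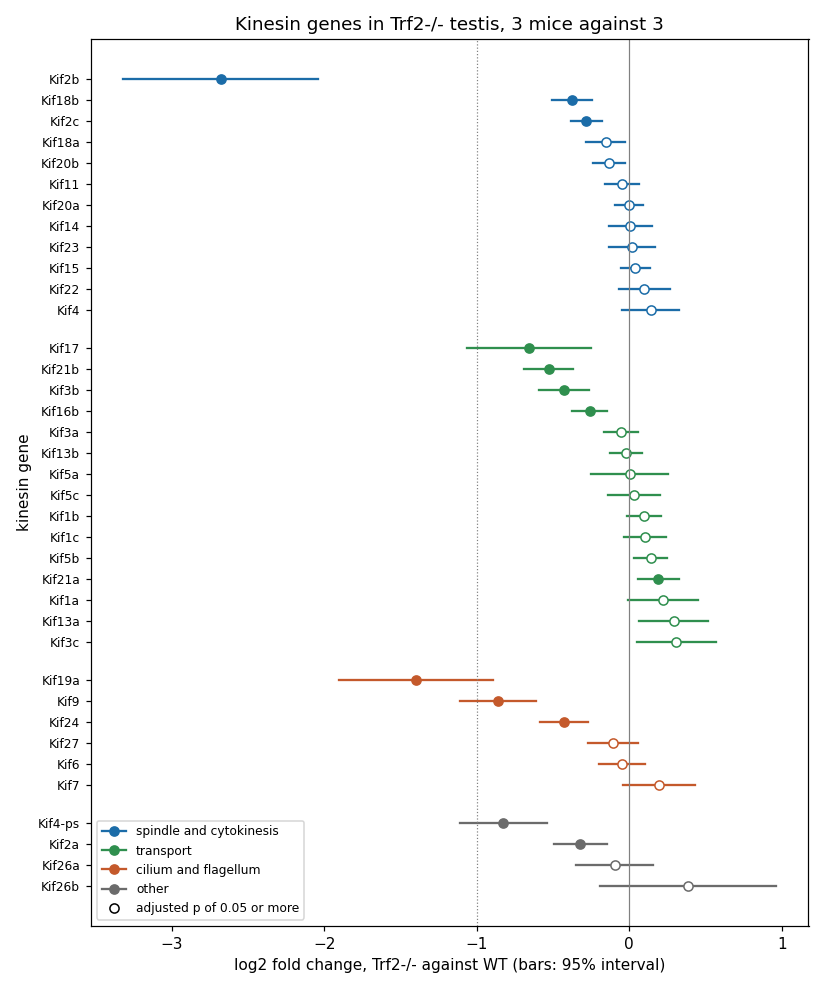
Log2 fold change of the 37 tested kinesin genes in Trf2-/- against WT testis (x axis), with 95% intervals as bars, 1 gene per row and genes grouped by list. Filled points have an adjusted p under 0.05, the dotted line marks a 2-fold decrease, and Kif2b at -2.68 and Kif19a at -1.40 lie beyond it.

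The spindle and cytokinesis list held 1 large change and 11 small ones. Of its 12 tested genes, 3 (25.0%) were lower (Kif2b, Kif18b and Kif2c) and 0 higher, beside 20.2% and 11.2% of all tested genes. The list's median log2 fold change was -0.02. Kif2b and Kif2c are kinesin-13 motors, which shorten microtubules at kinetochores and spindle poles rather than walking along them, and Kif18b works with Kif2c on astral microtubules.

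Kif2b had 108, 141 and 83 counts in WT mice and 13, 23 and 8 counts in Trf2-/- mice. This is 3.76, 5.40 and 3.98 CPM against 0.516, 0.986 and 0.506 CPM. The highest Trf2-/- mouse was far below the lowest WT mouse, and the log2 fold change was -2.68, with a standard error (SE) of 0.28 and an edgeR adjusted p of 0.000476. The Kif2b gene (NCBIM37, mm9, chromosome 11, 91436629 to 91438923, minus strand) is annotated with 1 exon, whereas the multi-exon kinesin genes have 8 to 49. It was a rare transcript in WT testis, where its 1.91 ± 0.387 RPKM (CPM per kb of gene length, SD, n = 3) ranked 34 of the 38 genes.

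Kif18b was at 37.7, 38.2 and 38.1 CPM in WT mice and at 28.1, 29.2 and 30.5 CPM in Trf2-/- mice. Its log2 fold change was -0.38 (SE 0.06, edgeR adjusted p = 0.00166). Kif2c was at 95.4, 92.2 and 96.0 CPM in WT and at 76.8, 78.8 and 77.9 CPM in Trf2-/- mice, a log2 fold change of -0.28 (SE 0.05, edgeR adjusted p = 0.00214). For both genes the mice of a genotype lay close together and the genotypes did not overlap, so that changes of 1.30-fold and 1.21-fold exceeded the spread between mice.

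Motors of the central spindle and of cytokinesis were not called. Kif20a (Mklp2), which brings the chromosomal passenger complex to the central spindle, was at 195, 200 and 200 CPM in WT mice and at 196, 200 and 199 CPM in Trf2-/- mice. The genotypes overlapped, and the 95% interval of its log2 fold change ran from -0.09 to 0.09. With 50.9 RPKM in both genotypes, it ranked 2 in WT and 1 in Trf2-/- testis among the kinesins. Kif20a overlaps Cdc23 on the opposite strand of chromosome 18 over 32.3% of its exonic bases, and Cdc23 had a log2 fold change of 0.05. Kif23 (Mklp1), the motor subunit of centralspindlin, Kif14, a cytokinesis motor, and Kif15 and Kif11, which push the spindle poles apart, had log2 fold changes between -0.05 and 0.04 that were not called, though with library size alone Kif15 was called higher (0.13). Kif18a, which limits the swinging of chromosomes at the spindle equator, and Kif20b had log2 fold changes of -0.15 and -0.13 with edgeR adjusted p-values of 0.0667 and 0.0524, and their genotypes did not overlap. Kif18a was called lower without Trf2-/- mouse 2 (edgeR adjusted p = 0.0455), and Kif20b without Trf2-/- mouse 1 (edgeR adjusted p = 0.0462) and with at least 10 counts in every mouse (edgeR adjusted p = 0.0498). With library size alone their log2 fold changes were -0.06 and -0.04, with edgeR adjusted p-values of 0.421 and 0.518. The DESeq2 Wald test gave adjusted p-values of 0.123 and 0.0893. Kif22 and Kif4, which bind chromosome arms, had log2 fold changes of 0.10 and 0.14 that were not called.

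Among 8 genes that work with these motors, 3 were lower (37.5%) and 0 higher, beside 20.2% and 11.2% of all tested genes. Plk1, the kinase of spindle assembly, had a log2 fold change of -0.90 (edgeR adjusted p = 0.00144) and Aurkb, the kinase of the chromosomal passenger complex, one of -0.63 (edgeR adjusted p = 0.00160). Tpx2, a spindle assembly factor, was the third. Among 6 related motors, 2 were lower (33.3%) and 0 higher. Cenpe, the kinetochore kinesin that is named outside the Kif series, had a log2 fold change of -0.37 (edgeR adjusted p = 0.00102).

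**Figure D2:**
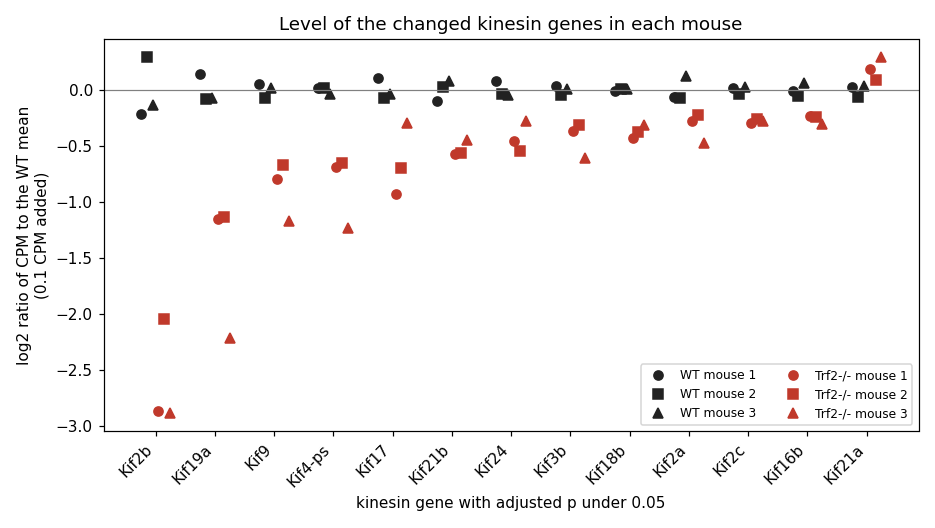
Level of the 13 called kinesin genes in each mouse, as the log2 ratio of its CPM to the WT mean with 0.1 CPM added (y axis), 1 gene per position on the x axis. Black points are WT and red points Trf2-/- mice with 1 symbol per mouse number, and in each gene the 3 red points lie on one side of the 3 black ones.

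Among the transport motors, 4 of 15 were lower (26.7%) and 1 was higher (6.67%), beside 20.2% and 11.2% of all tested genes. The other 10 were not called, and the list's median log2 fold change was 0.03. This median changed sign without Trf2-/- mouse 3 (-0.02) and was 0.08 without Trf2-/- mouse 1 or 2. The lower genes were Kif17, Kif21b, Kif3b and Kif16b. The conventional kinesin heavy chains Kif5a, Kif5b and Kif5c, and the kinesin-3 motors Kif1a, Kif1b and Kif1c, were not called, and their log2 fold changes lay between 0.00 and 0.22. With library size alone, Kif1a, Kif1b, Kif1c, Kif3c, Kif5b and Kif13a were also called higher.

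Kif17 was the transport motor with the largest decrease and had the fewest reads per gene length of the list in WT testis. It had 157, 126 and 103 counts in WT mice and 66, 72 and 65 in Trf2-/- mice, which is 5.47, 4.83 and 4.94 CPM against 2.62, 3.09 and 4.11 CPM. The genotypes did not overlap, but Trf2-/- mouse 3 lay closer to the lowest WT mouse than to Trf2-/- mouse 2 or 1. The log2 fold change was -0.66 (SE 0.18, 95% interval -1.06 to -0.25, edgeR adjusted p = 0.0226). This call did not hold when 1 mouse was left out, except for Trf2-/- mouse 3. The adjusted p from the same test was then 0.0849, 0.0568 and 0.0548 without WT mice 1, 2 and 3, 0.0582 and 0.0552 without Trf2-/- mice 1 and 2, and 0.00451 without Trf2-/- mouse 3, with log2 fold changes from -0.83 to -0.53. The Kif17 gene (NCBIM37, chromosome 4, 137806350 to 137857882) shares 74 exonic bases with Sh2d5 on the same strand, which had a log2 fold change of 0.06.

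The partners of Kif17 in male germ cells were measured as well. Fhl5, which encodes the cargo Act, was close to the limit of detection, with 18, 8 and 16 counts in WT mice and 22, 8 and 6 in Trf2-/- mice. The genotypes overlapped, and a log2 fold change of -0.02 had an SE of 0.47, so that a decrease of the size of that of Kif17 was not detectable at this depth. Crem was at 119, 118 and 121 CPM in WT and at 95.2, 103 and 81.1 CPM in Trf2-/- testis, a log2 fold change of -0.36 (SE 0.08, edgeR adjusted p = 0.00837).

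The palindrome TGACGTCA, the cAMP response element (CRE) to which Crem and its relatives are known to bind, occurs before the start of Kif17. Promoters of 300 bases, from 250 before to 50 after the start, were matched by symbol in the RefSeq set of build GRCm38.p6 for 31 of the kinesin genes, with 35 promoters. The element occurs in 3 of these 35 promoters (8.57%), those of Kif17, Kif5c and Kif18a, and in 1.79% of all 32851 promoters. Its first 5 bases alone, TGACG on either strand, occur in 42.9% of the kinesin promoters and in 20.8% of all, full elements included, and TATAAA on either strand occurs in 14.3% and 13.6%. The 250 bases before the start of Kif17, chr4:138262001-138262250 on the plus strand, are printed with 30 bases around the element of Kif5c, chr2:49619249-49619278 on the plus strand, and of Kif18a, chr2:109280757-109280786 on the plus strand, to show where the element lies, with the element in capitals.
Kif17: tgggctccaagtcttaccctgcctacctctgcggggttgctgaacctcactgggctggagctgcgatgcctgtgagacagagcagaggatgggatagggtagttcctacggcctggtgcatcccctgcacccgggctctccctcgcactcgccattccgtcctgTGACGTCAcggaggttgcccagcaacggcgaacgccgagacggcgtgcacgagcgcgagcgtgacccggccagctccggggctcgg
Kif5c: gatctctgcagTGACGTCAccgtgccgagg
Kif18a: gtctgacgtgcTGACGTCAtccgaacggca
The element begins 86 bases before the start in Kif17, 26 bases before it in Kif5c and at base 31 after it in Kif18a. Of the other two genes, Kif5c, a neuronal kinesin-1 heavy chain, had a log2 fold change of 0.03 and Kif18a one of -0.15, and neither was called. Of the 9 lower kinesin genes with a matched promoter, 1 held the full element. Binding of Crem or Trf2 was not measured in these samples.

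Kif3b was the transport motor with the most reads per gene length in WT testis, and the second after Kif5b in Trf2-/- testis, at 37.3 ± 3.90 and 39.8 ± 1.82 RPKM (SD, n = 3). It was at 290, 274 and 284 CPM in WT mice and at 219, 227 and 185 CPM in Trf2-/- mice. The genotypes did not overlap, and the log2 fold change was -0.43 (SE 0.07, edgeR adjusted p = 0.00263). Kif3b and Kif3a form the heterodimer of kinesin-2, which with the accessory subunit Kifap3 carries cargo along cilia and flagella. Kif3a was at 133, 122 and 130 CPM in WT and at 127, 123 and 121 CPM in Trf2-/- mice, with overlapping genotypes and a log2 fold change of -0.06 (95% interval -0.17 to 0.06). Kifap3 had a log2 fold change of -0.05 (SE 0.05). Kif3c, the alternative partner of Kif3a, had one of 0.31 with an edgeR adjusted p of 0.0690. Of these 3 motor subunits, Kif3b was called in each scaling run, and Kif3c was called higher with library size alone. Kif3c was also called higher without Trf2-/- mouse 1 (0.40, edgeR adjusted p = 0.0286). The ratio of Kif3b to Kif3a reads per kb was 2.27, 2.35 and 2.28 in WT mice and 1.80, 1.93 and 1.60 in Trf2-/- mice.

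Kif21b, a kinesin-4 motor, was at 30.4, 33.1 and 34.4 CPM in WT mice and at 21.9, 22.1 and 23.9 CPM in Trf2-/- mice. Its log2 fold change was -0.53 (SE 0.07, edgeR adjusted p = 0.00106). Its paralog Kif21a was at 128, 120 and 128 CPM in WT and at 143, 134 and 154 CPM in Trf2-/- mice, a log2 fold change of 0.19 (SE 0.06, edgeR adjusted p = 0.0384). Neither gene overlapped between the genotypes, and they moved in opposite directions. The increase of Kif21a was the only one called among the kinesins and was lost without WT mouse 1, 2 or 3 or Trf2-/- mouse 1 (edgeR adjusted p = 0.0867, 0.150, 0.0741 and 0.0890). Kif16b, which moves early endosomes, had a log2 fold change of -0.26 (SE 0.05, edgeR adjusted p = 0.00533). Kif5b had a log2 fold change of 0.14 with an edgeR adjusted p of 0.0503, just outside the threshold, and Kif13a, which moves recycling endosomes, one of 0.29 with an edgeR adjusted p of 0.0539. Kif5b was called higher with DESeq2 size factors (edgeR adjusted p = 0.0466), and Kif13a without a filter beyond 1 count (edgeR adjusted p = 0.0405).

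Among 14 partners of the transport motors, which include Crem and Fhl5 beside adaptors and light chains, 3 were lower (Mapk8ip2, Crem and Rhot1) and 1 was higher (Trak2), that is 21.4% and 7.14% beside 20.2% and 11.2% of all genes. Mapk8ip2 (Jip2), a scaffold that links kinesin-1 to cargo, had the largest change, from 94.6, 89.2 and 84.7 CPM in WT to 54.8, 58.0 and 47.0 CPM in Trf2-/- mice, a log2 fold change of -0.75 (edgeR adjusted p = 0.000505). Rhot1 (Miro1) ties mitochondria to kinesin, and Trak2 is its adaptor. Klc3, the kinesin light chain of spermatids, had a log2 fold change of 0.37 (SE 0.19) that was not called.

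In the cilium and flagellum list 3 of 6 genes were lower (50.0%) and 0 higher, beside 20.2% and 11.2% of all tested genes. The list's median log2 fold change was -0.27, which lies between Kif24 (-0.43) and Kif27 (-0.11). Whether the share of this list differs from that of the other lists or of all genes was not tested. Kif9, a motor of the central pair of the flagellar axoneme, was at 289, 265 and 281 CPM in WT mice and at 160, 175 and 123 CPM in Trf2-/- mice. The genotypes were far apart, with a log2 fold change of -0.86 (SE 0.11, edgeR adjusted p = 0.000830). Per gene length Kif9 was the first of the kinesins in WT testis, with 61.6 ± 2.78 RPKM (SD, n = 3), and the fourth in Trf2-/- testis, with 33.8 ± 5.88. Trf2-/- mouse 3, the lowest for Kif9, also had the lowest summed level of round spermatid markers, at 138 CPM against 200.1 and 220.0 CPM in Trf2-/- mice 1 and 2. Most of this sum was Spata16, at 106 CPM against 156 and 173 CPM. The part of these levels in the value of Kif9 was not tested. The gene occupies bases 110379462 to 110427683 of chromosome 9 (NCBIM37).

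Kif19a, which shortens microtubules at the tips of cilia and sets their length, was at 27.0, 23.1 and 23.2 CPM in WT mice and at 11.0, 11.1 and 5.18 CPM in Trf2-/- mice. Each Trf2-/- mouse was below each WT mouse, with Trf2-/- mouse 3 the lowest, and the log2 fold change was -1.40 (SE 0.22, edgeR adjusted p = 0.00197). Kif24, a kinesin-13 of the centriole that restrains the growth of cilia, was at 136, 126 and 125 CPM in WT and at 93.9, 88.6 and 106 CPM in Trf2-/- testis. Its genotypes did not overlap, and its log2 fold change was -0.43 (SE 0.07, edgeR adjusted p = 0.00232).

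The remaining members of this list were not called. Kif6, the closest relative of Kif9 and likewise a motor of motile cilia, was at 32.0, 30.1 and 29.9 CPM in WT mice and at 30.6, 27.8 and 30.7 CPM in Trf2-/- mice, with overlapping genotypes and a log2 fold change of -0.05 (95% interval -0.20 to 0.10). Kif27 and Kif7, relatives of the hedgehog pathway motor of flies, had log2 fold changes of -0.11 and 0.20. The ratio of Kif9 to Kif6 reads per kb was 7.33, 7.12 and 7.61 in WT mice and 4.23, 5.10 and 3.25 in Trf2-/- mice.

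**Figure D3:**
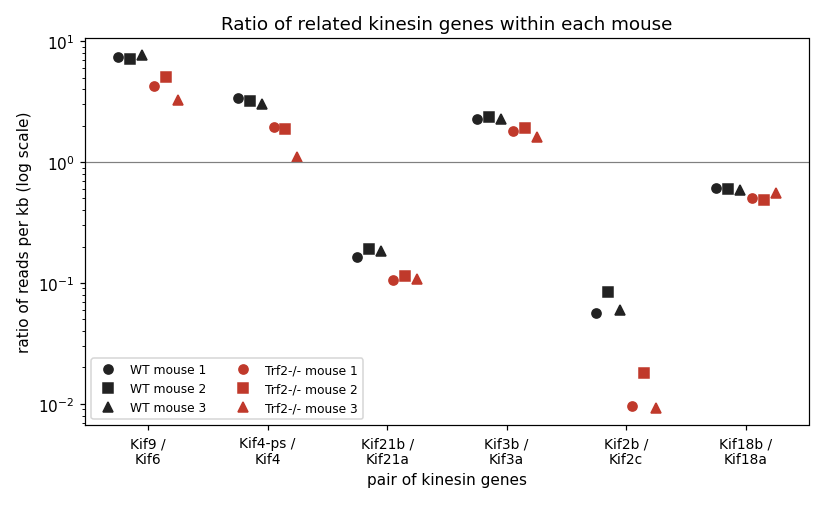
Ratio of the reads per kb of a called kinesin gene to those of a relative (y axis, log scale), in each WT mouse (black) and each Trf2-/- mouse (red), for 6 pairs of genes on the x axis. In each pair the 3 Trf2-/- mice lie below the 3 WT mice, for example 4.23, 5.10 and 3.25 against 7.33, 7.12 and 7.61 for Kif9 over Kif6.

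These pairs were chosen after the values had been seen, so the ratios are a description without a test. They do not depend on the scaling of the libraries. Kif2b over Kif2c went from 0.0563, 0.0835 and 0.0592 in WT mice to 0.00958, 0.0179 and 0.00926 in Trf2-/- mice. Kif21b over Kif21a was 0.165, 0.191 and 0.186 in WT and 0.107, 0.115 and 0.108 in Trf2-/- mice. Kif18b over Kif18a moved least, from 0.615, 0.597 and 0.582 to 0.501, 0.488 and 0.553.

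Among the 5 other kinesin genes, 4 were tested and 2 were lower (50.0%, beside 20.2% of all tested genes). Kif4-ps, named as a pseudogene of the chromokinesin gene Kif4 but listed as protein coding, lies on the plus strand of chromosome 12 of NCBIM37 from 102383824 to 102387492 and, like Kif2b, has 1 exon. It was at 67.8, 67.6 and 65.4 CPM in WT mice and at 41.5, 42.7 and 28.5 CPM in Trf2-/- mice. The genotypes did not overlap, and the log2 fold change was -0.82 (SE 0.13, edgeR adjusted p = 0.00174). Kif4, on the X chromosome, was at 27.3, 28.9 and 29.4 CPM in WT and at 28.7, 30.7 and 35.3 CPM in Trf2-/- mice, with a log2 fold change of 0.14 (SE 0.08) that was not called. Both single-exon kinesin genes were lower in Trf2-/- testis, and a link between exon number and change was not tested.

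Reads of 50 bases can tell Kif4-ps from Kif4 over nearly all of their length. Aligned over 3645 columns without gaps, the Kif4 coding sequence and the Kif4-ps transcript were 81.1% identical, with 688 mismatches, and only 15 stretches of 50 bases, 0.414% of those in Kif4-ps, occurred in both. The first 60 bases of each from the start codon of Kif4, taken from the annotated transcripts of the same build, show how densely the differences lie, with the 11 differing bases in capitals.
Kif4: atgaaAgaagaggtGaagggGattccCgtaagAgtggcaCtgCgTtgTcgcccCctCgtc
Kif4-ps: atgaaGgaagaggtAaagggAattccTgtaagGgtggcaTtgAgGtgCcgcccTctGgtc
The ratio of Kif4-ps to Kif4 reads per kb was 3.38, 3.18 and 3.02 in WT mice and 1.97, 1.89 and 1.10 in Trf2-/- mice. With the reads of both genes added together, the pair went from 95.5 ± 0.895 to 69.1 ± 4.87 CPM (SD, n = 3 each), which is a log2 fold change of -0.46 (SE 0.06, edgeR adjusted p = 0.000813).

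Kif2a, a further kinesin-13, was at 154, 153 and 175 CPM in WT mice and at 132, 137 and 115 CPM in Trf2-/- mice. The genotypes did not overlap, and the log2 fold change was -0.32 (SE 0.08, edgeR adjusted p = 0.0132). It overlaps Dimt1 on the opposite strand over 17.4% of its exonic bases, and Dimt1 had a log2 fold change of -0.03. Kif2a, Kif2b and Kif2c, the kinesin-13 genes of the Kif2 group, were lower by 1.25-fold, 6.40-fold and 1.21-fold. Over all tested genes 20.2% were lower. This group was put together after the values were seen and was not tested as a group. Kif26a and Kif26b, which lack motor activity, were not called. Kif12 was not tested, with 0, 2 and 0 counts in WT mice and 2, 6 and 3 in Trf2-/- mice.

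**Figure D4:**
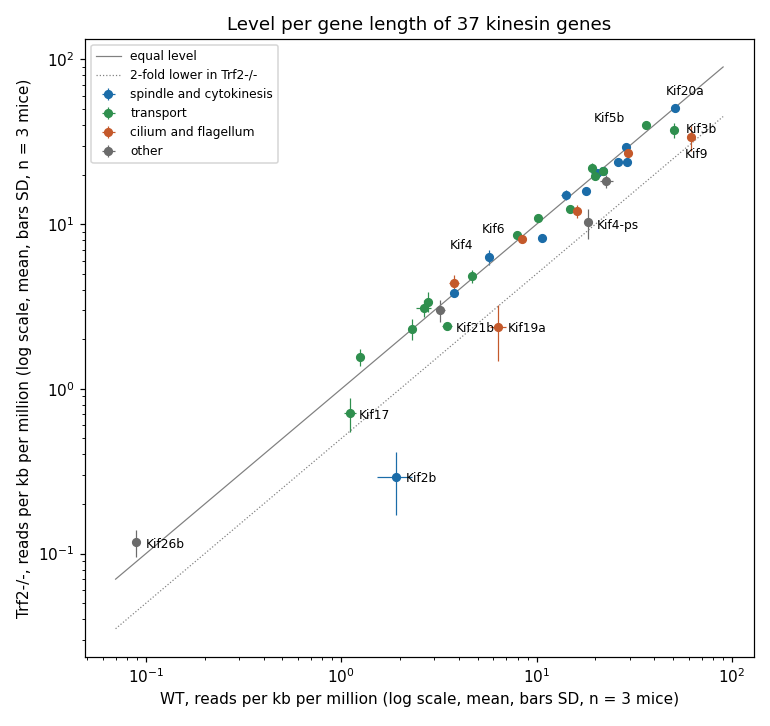
Mean level of the 37 tested kinesin genes in WT (x axis) and Trf2-/- testis (y axis), in RPKM (CPM per kb of gene length) on log scales, with the SD over 3 mice as bars and colours for the lists. Kif9 at 61.6 and 33.8 lies below the solid line of equal level, Kif20a at 50.9 in both genotypes lies on it, and Kif2b and Kif19a lie below the dotted line of a 2-fold decrease.

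Summed over the 38 genes, kinesin mRNA was slightly lower in Trf2-/- testis, by an amount that depended on the scaling. With TMM factors the sum was 3086 to 3160 CPM in WT mice and 2789 to 2824 CPM in Trf2-/- mice, a difference of 325 CPM between the means. With library size alone, a setting added after seeing the data, it was 3005 to 3052 CPM and 2882 to 2905 CPM, a difference of 130 CPM. Kif9 differed by 125.5 CPM under the first scaling and 111 CPM under the second, and Kif3b by 72.4 and 56.3 CPM. The summed level of the cilium and flagellum motors was lower in each Trf2-/- mouse under both scalings, by 182 and 148 CPM. The sums of the spindle and of the transport motors were lower by 41.4 and 39.1 CPM with TMM factors, but higher with library size alone, at 943 against 923 CPM and at 1318 against 1272 CPM (means of 3 mice). Without Kif9 the genotypes did not overlap with TMM factors, at 2822 to 2880 CPM in WT and 2645 to 2665 CPM in Trf2-/- mice, but overlapped with library size alone, at 2745 to 2781 CPM and 2717 to 2776 CPM.

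The 12 lower genes did not share one order among the Trf2-/- mice. Trf2-/- mouse 3 was the lowest for 7 of them (Kif2b, Kif19a, Kif9, Kif4-ps, Kif3b, Kif2a and Kif16b) and the highest for 4 others (Kif17, Kif21b, Kif24 and Kif18b). Trf2-/- mouse 1 was the lowest for 4 (Kif17, Kif18b, Kif21b and Kif2c) and Trf2-/- mouse 2 for Kif24.

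Markers of cell types also differed between the genotypes and between the Trf2-/- mice. Of 10 round spermatid markers, 9 were lower (median log2 fold change -1.73), where 20.2% of all tested genes were lower and 11.2% higher. Acrv1, Catsper4, Tssk2, Acsbg2, Catsper3 and Izumo1 had 0 to 15 counts in Trf2-/- mice. They passed the filter through their WT counts (13 to 43), so their direction was close to fixed in advance. Tssk1, Spata16 and Acr had log2 fold changes of -1.41, -0.95 and -0.85, and Spaca1, not called, one of -0.22. The summed level of the 10 markers was 346.5 to 366.8 CPM in WT mice and 200.1, 220.0 and 138 CPM in Trf2-/- mice. Most of this sum was Spata16, at 292, 270 and 279 CPM in WT mice and at 156, 173 and 106 CPM in Trf2-/- mice. Trf2-/- mouse 3 was thus the lowest for this sum as well. The defining markers of elongating spermatids Prm2, Prm3, Tnp1 and Smcp were at or near 0 in both genotypes and were not tested. The 3 tested markers of that stage, Gapdhs, Akap4 and Odf1, were lower, with 19 to 67 counts in WT and 0 to 11 in Trf2-/- mice. They passed the filter through their WT counts, so this direction was close to fixed in advance and says nothing about the stage. Spermatocyte markers gave 5 lower and 3 higher of 10, with a median of -0.08. Their summed levels, in which Ldhc and Hspa2 had the most reads, were 6317 to 6768 CPM in WT and 5105 to 5713 CPM in Trf2-/- mice. Ldhc and Hspa2 were among the 5 lower markers, with log2 fold changes of -0.70 and -0.17. The 3 higher markers, Sycp1, Sycp3 and Hormad1, had log2 fold changes of 0.29, 0.24 and 0.17. Spermatogonium markers gave 0 lower and 1 higher of 8, with summed levels of 245 to 261 CPM in WT and 254, 273 and 334 CPM in Trf2-/- mice. Sertoli cell markers gave 3 higher of 7 (1596 to 1723 against 1832 to 2040 CPM, most of it Clu). Leydig cell markers gave 1 higher of 5 (174 to 351 against 176 to 317 CPM) and peritubular cell markers 1 higher of 4 (269 to 345 against 338 to 389 CPM). Macrophage markers gave 4 higher of 7, at 166 to 188 CPM in WT and at 364, 223 and 189 CPM in Trf2-/- mice. The part of these cell type differences in the kinesin results was not tested.

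**Figure D5:**
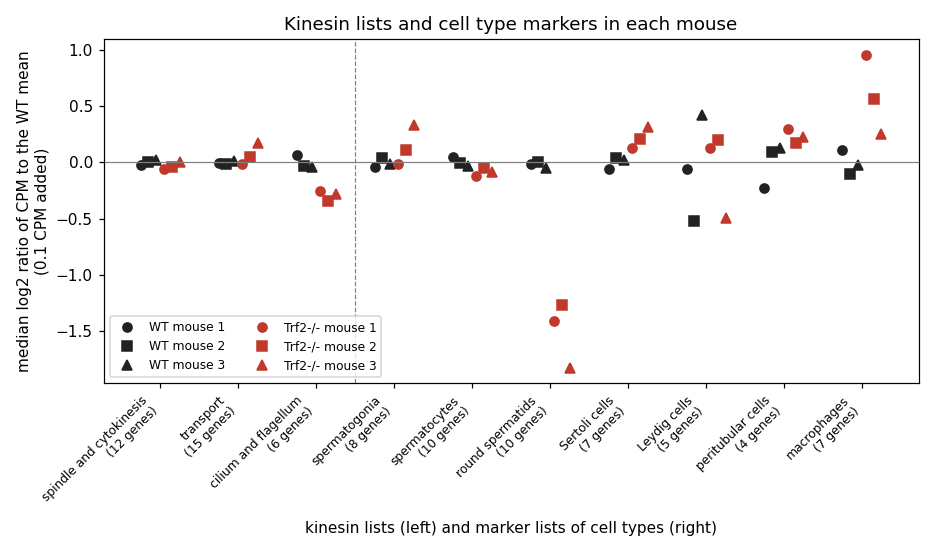
Median log2 ratio to the WT mean (y axis, 0.1 CPM added) over the genes of 3 kinesin lists, left of the dashed line, and 7 lists of cell type markers, right of it, in each WT mouse (black) and each Trf2-/- mouse (red). The Trf2-/- points of the cilium and flagellum list lie between -0.34 and -0.26, and those of the round spermatid markers between -1.82 and -1.27. Most of the round spermatid markers passed the filter on low counts through their WT counts. Their direction was therefore close to fixed in advance, and it weighs on these medians.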

How the data were processed

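RNA-seq was made from whole testis, at 21 days, of 3 WT mice and 3 mice lacking Trf2. The authors deposited raw read counts per gene for each mouse, without normalization, from single-end 50-base reads aligned to mm9. The submitters' processing notes list CASAVA 1.8.2, TopHat2 2.0.10, Bowtie2 2.1.0, HTSeq 0.5.4p3 and DESeq2 1.0.19. The strand setting of the counting is not given in the sources used here, so genes overlapping on opposite strands may share reads. A further 12 columns of normalized values were not used.

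In R 4.3.3, the quasi-likelihood test of edgeR 4.0.16 (filterByExpr, TMM factors, glmQLFit, glmQLFTest) was run on the counts, with Benjamini-Hochberg adjustment over 16924 genes. Standard errors (SE) were computed as the absolute log2 fold change over the square root of F. CPM used the TMM-scaled library size, and reads per kb used the deposited gene length, which does not correct for isoforms. With 3 mice against 3, an exact permutation test cannot give a p under 0.1, so only the model across genes was used. The script was tested on simulated counts. Same-genotype libraries differed by at least 2.763 times the sampling noise (chi-square over degrees of freedom).

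The kinesin genes, functional lists and markers were chosen with earlier results of these data known. By rule, per-mouse values are given for members called with at least a 2-fold change, Kif17, the 3 largest changes and the most abundant gene (per kb, in WT) of each of the spindle, transport and cilium lists, and untested members. Kif3a, Kif6, Kif4, Kif4-ps, Kif2a and Kif21a were added after their values were seen. Partners are named when called with at least a 1.5-fold change, or as Klc3, Kifap3, Fhl5, Crem and Cenpe, and others named were chosen after their values were seen. Kif28 and Kif1bp were listed as well but could not be analysed, as the deposited table has no genes under these names. Alternatives were DESeq2 1.42.0 size factors and Wald test, library size alone, no filter beyond 1 count, at least 10 counts in every mouse, an adjusted p of 0.01, the replicate number as a block and each mouse left out. Adding the reads of Kif4 and Kif4-ps, and summing kinesin levels by library size alone, were chosen after seeing the data.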

Additional observations from a re-analysis of the deposited data

How the results depend on the processing

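The number of lower kinesin genes was 10 to 12 under the alternatives run, where 13.0% to 20.5% of all genes were lower. The calls of 10 of the 12 genes were kept in each alternative in which they were fitted. Kif2a lost its call at an adjusted p of 0.01, and Kif17 lost it there (log2 fold change -0.66) and in 5 of the 6 fits without 1 mouse (-0.69 to -0.53), and kept it without Trf2-/- mouse 3 (-0.83). Kif20b gained a lower call with at least 10 counts in every mouse and without Trf2-/- mouse 1, and Kif18a without Trf2-/- mouse 2. With at least 10 counts in every mouse Kif2b could not be fitted, since 1 mouse had 8 counts. In that setting 1 kinesin gene was lower at least 2-fold, beside 2.81% of all genes. Higher kinesin genes numbered 2 with DESeq2 size factors and 2 without a filter beyond 1 count, beside 11.1% and 7.64% of all genes. They numbered 8 with library size alone and 0 at an adjusted p of 0.01, beside 25.2% and 2.84%. When 1 mouse was left out they numbered 0 to 2, beside 4.54% to 11.0% of all genes. Of these fits, those without a WT mouse gave 0, and those without Trf2-/- mouse 2 or 3 gave 2. Library size alone moved the list medians to 0.0707 (spindle), 0.13 (transport) and -0.17 (cilium and flagellum), as the median of all genes moved to 0.13, leaving out 1 mouse gave -0.02 to 0.08 for transport, and with Kif4 and Kif4-ps reads summed the spindle median was -0.0907. Kif4 and Kif4-ps could not be fitted singly there.

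Sign changes were seen for genes that were not called. With library size alone these were Kif11 (0.0464), Kif3a (0.0398), Kif6 (0.0480) and Kif13b (0.0733). Kif20a was at -0.0043 with DESeq2 size factors, -0.0041 with its Wald test, -0.0111 with at least 10 counts, and -0.0202 to 0.0064 when 1 mouse was left out. Kif5a was at -0.0030, -0.0035 and -0.010 under the same settings, -0.0021 with the replicate block, and -0.0965 to 0.0787 when 1 mouse was left out. Kif14 was at -0.0048 with at least 10 counts, and leaving out 1 mouse gave -0.0366 to 0.0291 for Kif14, -0.0377 to 0.0582 for Kif23, -0.1815 to 0.0095 for Kif26a and -0.0197 to 0.0841 for Kif5c.

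Mice of the same number did not deviate together, with correlations of -0.097, -0.031 and -0.102 over genes. Pairs of unlike number gave -0.032 to 0.108. A pairing by number was thus not seen, but such correlations cannot exclude shared litters or handling. The fit with the replicate block called 12 kinesin genes lower and 1 higher, beside 18.3% and 8.78% of all genes, and kept Kif17 at -0.66. Depth limits Kif12 and Fhl5, and Trf2-/- mouse 3, the least deep library, sets the highest floor.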
